A study of Homo sapiens with 8 samples.

Results

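The genes described here are 10 protein-coding genes of the Hippo pathway: the kinases LATS1 and LATS2, the effectors YAP1 and WWTR1 (whose product is also called TAZ), the transcription factors TEAD1 to TEAD4, and the target genes CCN1 and CCN2 (also called CYR61 and CTGF). They are 10 of 19617 protein-coding genes in the GENCODE 44 annotation. The set was chosen by measured values of these same libraries: it was proposed because a stretch of chromatin upstream of LATS2 carried a peak in E92K libraries only, so that stretch is described and not tested. Around each gene, its span plus 20 kb on each side was searched for ATAC-seq peaks. ATAC-seq uses the Tn5 transposase to cut and tag DNA that is open to the enzyme, and a peak is a stretch where more fragments were found than the local background. When the peaks of all libraries were merged where they overlapped, 94 of the 96872 resulting regions fell in these windows.

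All 8 libraries came from HEK293T, an established line grown from human embryonic kidney and expressing the large T antigen of SV40. In 4 libraries the cells expressed histone H2A from a lentivector, and in the other 4 they expressed H2A(E92K) from a lentivector. E92K puts a lysine in place of a glutamate in the acidic patch of the nucleosome, a charged surface on the H2A and H2B dimer that many chromatin proteins bind. No further treatment was given, and every group, the H2A group included, carried an introduced histone gene beside the cells' own. The labels name neither the promoter that drives the histone nor whether a line was a clone, and they do not say that replicates were separate cultures. The p-values below therefore measure the spread between these libraries, which may be technical.

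The Hippo pathway links cell contact, tension and polarity to growth. The kinases STK3 and STK4 activate LATS1 and LATS2, which phosphorylate YAP1 and TAZ and so keep them in the cytoplasm or send them for degradation. When the kinases are inactive, YAP1 and TAZ enter the nucleus and bind TEAD proteins, which recognise DNA through the core GGAATG and carry no strong activation domain of their own. YAP1 and TAZ often reach distal enhancers rather than promoters, and CCN1 and CCN2, which encode secreted matricellular proteins, are textbook outputs.

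H2A lists held 57439 to 62044 peaks (mean 59544.8 ± 1923, SD, n = 4) and E92K lists 55527 to 61850 (58245.5 ± 2649, n = 4). The groups overlapped, and the difference of -1299.25 peaks had p = 0.429 (exact two-sided permutation test, whose smallest p here is 0.0286). The genome-wide background recovered from the peak values was 2.52 to 2.93 fragments in H2A and 2.23 to 2.68 in E92K, and the fewest fragments that could be called at that background was 10 to 11 in H2A and 9 to 10 in E92K. Where the local background is higher, more fragments are needed: a TEAD3 peak in H2A 2 had 39 fragments over a background of 20.2 and a -log10 q of 2.25. A position with no peak can therefore still hold fragments. All 7 promoters of genes that mark HEK293T (PAX2, SIX2, WT1, SALL1, VIM, NEFL and INA) had a peak in all 8 libraries. Of 11 promoters of lymphoid, liver, endothelial and mature kidney genes none did. Of those 11, 9 had a peak in no library, PTPRC had a peak in 1 E92K library, and NPHS1 had peaks in 4 H2A libraries and 1 E92K library.

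Both groups had open promoters at all 10 genes: each had a peak within 1000 bp of a transcription start site in all 8 libraries, as did 68% of all coding promoters. A promoter peak in every H2A library and no E92K library was found at 0.0255% of all coding genes, the reverse at 0.0051%, and neither at any of the 10. Of the 94 regions 37 were called in all 8 libraries (39.4%, beside 38.1% of all regions). Distal regions called in every library of a group and no library of the other group lay at LATS2 and WWTR1. At LATS2 that pattern chose the genes, so it is a description only. A region upstream of LATS2 was called in 4 of 4 E92K and 0 of 4 H2A libraries, a pattern held by 0.139% of all regions and 0.163% of distal ones. A pair of regions at WWTR1 was called in 4 of 4 H2A and 0 of 4 E92K libraries, a pattern held by 0.184% of all regions and 0.207% of distal ones. By Fisher's exact test, with p-values adjusted over all regions after Benjamini and Hochberg, no region passed (percent called 0), since 4 against 4 gives an unadjusted p of 0.0286 at best. At an unadjusted p under 0.05 there were 313 regions (0.323%), the pair at WWTR1 among them. The LATS2 region has the same split in the other direction, but no p is read for it, because that split chose the genes.

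The DNA under the upstream WWTR1 region, which separated the groups, and under the strongest distal region of the 10 genes, in TEAD1, is shown because results below turn on these places. Each sequence is 300 bases of the hg38 plus strand centred on the median peak summit, in lower case, with any TEAD core (GGAATG or its complement) in capitals.
WWTR1 upstream, chr3:149717392-149717691: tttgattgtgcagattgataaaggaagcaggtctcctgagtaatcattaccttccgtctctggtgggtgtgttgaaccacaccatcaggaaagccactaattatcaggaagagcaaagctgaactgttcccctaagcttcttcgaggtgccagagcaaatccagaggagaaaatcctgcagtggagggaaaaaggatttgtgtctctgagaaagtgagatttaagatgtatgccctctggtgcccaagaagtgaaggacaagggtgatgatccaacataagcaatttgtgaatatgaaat
TEAD1 intron, chr11:12746628-12746927: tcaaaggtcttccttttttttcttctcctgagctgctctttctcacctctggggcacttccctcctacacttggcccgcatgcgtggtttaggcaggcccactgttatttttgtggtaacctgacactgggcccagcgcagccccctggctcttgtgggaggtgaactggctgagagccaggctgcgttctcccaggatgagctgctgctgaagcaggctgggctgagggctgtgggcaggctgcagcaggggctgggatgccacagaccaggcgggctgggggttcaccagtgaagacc
Neither sequence held a TEAD core. The AP-1 core TGANTCA was in neither on either strand. Nor was the GATA core AGATAA in these 300-base stretches. Outside the printed bases, the whole TEAD1 region held a TEAD core at 12746195 and a GATA core at 12747062. The whole WWTR1 region held a GATA core at 149717239. GC content was 44% at WWTR1 and 60.3% at TEAD1.

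LATS1 (ENSG00000131023.13) lies on chromosome 6 at 149658153 to 149718105 on the minus strand of hg38. Its promoter had the strongest peak of the 10 genes. Peaks were ranked within each list by their -log10 p. A percentile is the rank counted from the lowest value, as a percentage of that list's peaks, with tied peaks given their average rank. The LATS1 promoter region (149717280 to 149718573) stood between percentiles 98.0 and 99.2 in every library. Its fold over background, the authors' own value for each peak, was 9.28, 10.1, 10.3 and 9.48 in H2A 1 to 4 and 9.68, 10.0, 10.1 and 9.97 in E92K 1 to 4. Folds and percentiles describe peaks within a list and were not tested between groups. The more internal annotated start of LATS1 at 149702354 had a peak in no library.

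Upstream of LATS1, an intergenic region 6 kb away (149723675 to 149724496) was called in all 8 libraries. Its fold was 5.52, 6.91, 7.44 and 6.34 in H2A 1 to 4 and 6.15, 4.24, 5.86 and 7.48 in E92K 1 to 4. The groups overlapped, and the lowest value was in E92K 2. It was the only one of the 9 distal LATS1 regions present in every library, while 4 were called in a single library. The region at the neighbouring KATNA1 promoter, inside the same window, was also called in all 8.

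LATS2 (ENSG00000150457.9) lies on chromosome 13 at 20973036 to 21061586 on the minus strand. Its promoter region (21060316 to 21062029) had a fold of 8.20, 9.15, 9.05 and 8.0 in H2A 1 to 4 and 7.11, 8.67, 8.24 and 9.92 in E92K 1 to 4. The E92K values spanned the H2A range on both sides. The promoter of LATS2 ranked lower than that of LATS1 in every library, at percentiles 78.3 to 85.7.

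The region called in E92K only (chr13:21067566-21068211, 646 bp) lay 6.3 kb upstream of the LATS2 start. At its midpoint the DNA is intergenic and no noncoding gene is annotated. The fold of this region was 4.67, 5.16, 4.50 and 6.39 in E92K 1 to 4 (5.18 ± 0.853, SD, n = 4). The 4 peaks had -log10 q values of 6.90, 9.22, 6.28 and 11.6, and stood at percentiles 32.4, 40.9, 31.0 and 45.7 of their lists. These were middling peaks, near the median percentile of 40.2 to 40.7 for distal peaks. At the summits 18, 22, 17 and 22 fragments were piled up, above the calling floor of 9 to 10 at the genome background. All 4 peaks shared a stretch of 258 bp, and their summits fell within 156 bp of each other. In the H2A lists the nearest peak was that of the LATS2 promoter, 5536 to 5687 bp away.

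**Figure D1:**
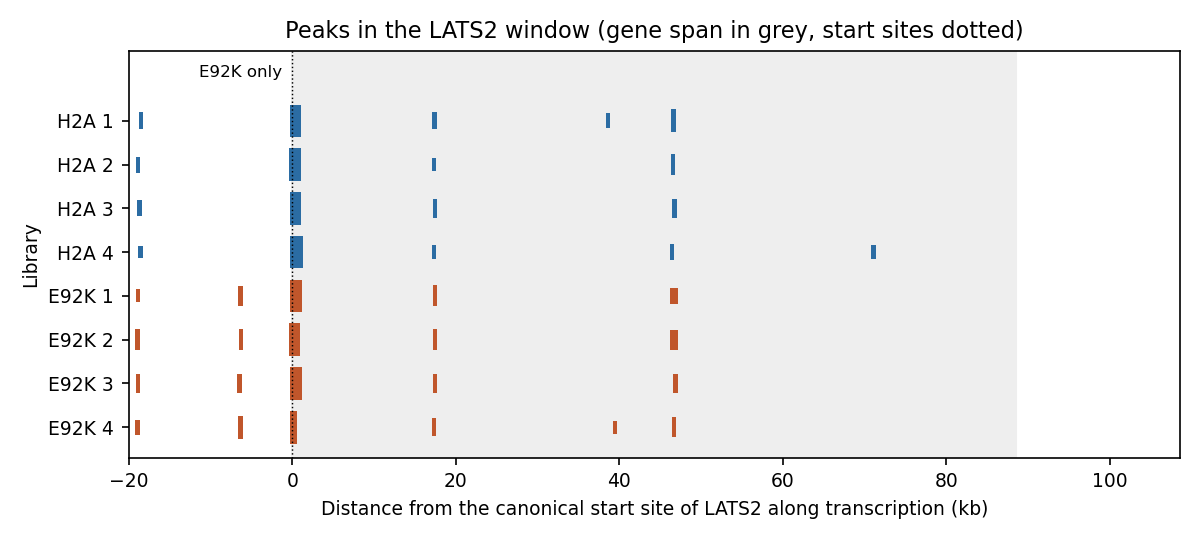
Peaks in the LATS2 window in each of the 8 libraries, drawn against distance from the LATS2 start in kb, with positive distances downstream in the direction of transcription. Each bar is a called peak, its height scales with its within-list percentile, and narrow peaks are drawn at a minimum width. The upstream region has a bar in E92K 1 to 4 and none in H2A 1 to 4, while the promoter has a bar in all 8.

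Within the 135 regions called in E92K only, the LATS2 region ranked 7 by its lowest percentile, 31.0 against a median of 9.31. The other E92K-only regions with the most similar percentiles in E92K 1 to 4, by Euclidean distance over the 4 libraries among 134 candidates, were nearest to LRRC63, ZPLD1, SPCS3, DIPK1B and FAM241A. Their distances were 11.8, 12.9, 16.1, 16.9 and 17.2 percentile points. The first is on chromosome 13 too, 8.3 kb downstream of the LRRC63 start. Just outside the rule of 4 against 0, the region at chr11:102133201-102133814 in a YAP1 intron was called in 3 E92K and 0 H2A libraries with folds of 3.27, 3.02 and 3.25, a split held by 566 regions (0.584%).

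Repeated DNA limits where short reads can be placed, so each region was cut into overlapping 32-base words and every word was counted over both strands of hg38. At the LATS2 region 429 of 615 words (69.8%) were found once, and 59 (9.59%) had more than 100 copies. The word at each of the 4 summits was found once. Of the 79 distal regions at the 10 genes, 49 had every word found once and 7 had under 70%, the LATS2 region among them. How the reads from the repeated words were placed is not given in the sources used here, and its part in the call was not tested.

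The other distal regions of LATS2 did not separate the groups. An intronic region 46.7 kb downstream of the start (21014365 to 21015420), where the antisense gene LATS2-AS1 is annotated, was called in all 8 libraries with folds of 5.51, 4.78, 4.42 and 3.69 in H2A 1 to 4 and 3.61, 4.48, 4.58 and 4.61 in E92K 1 to 4. A region 17.4 kb downstream, in an intron, and an intergenic region 18.7 kb upstream were also called in all 8. Their percentiles ran from 5.2 to 40.8 and from 3.5 to 36.6. Of the 7 distal regions, 3 were called in a single library, at percentiles 8.6 to 13.98.

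YAP1, the co-activator that LATS kinases phosphorylate, lies on chromosome 11 at 102110447 to 102233424 on the plus strand. Its promoter region (102109897 to 102112359) had folds of 5.08, 6.21, 5.59 and 5.66 in H2A 1 to 4 and 5.82, 4.97, 5.71 and 5.72 in E92K 1 to 4, and the groups overlapped. YAP1 had 4, 5, 6 and 6 distal peaks in the H2A libraries, sorted, and 5, 7, 7 and 8 in the E92K libraries (5.25 ± 0.957 against 6.75 ± 1.26, SD, n = 4 each). Those counts overlapped as well, with an unadjusted p of 0.171 (exact permutation test) and an adjusted p of 1. The strongest distal region present in all 8 was intronic, 10.2 kb downstream of the start (102119822 to 102121399), at percentiles 34.5 to 48.4.

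WWTR1, which encodes TAZ, the paralogue of YAP1, lies on chromosome 3 at 149517235 to 149736714 on the minus strand. Its promoter region (149657440 to 149659026) had folds of 7.71, 7.81, 7.96 and 7.95 in H2A 1 to 4 and 8.60, 8.32, 8.53 and 8.22 in E92K 1 to 4. The folds did not overlap between the groups, while the percentiles did, at 93.1 to 93.8 in H2A and 92.5 to 95.1 in E92K. Of the 37 regions at the 10 genes with a peak in all 8 libraries, 5 had every E92K fold above every H2A fold, beside 3.96% of all such regions, and 0 had the reverse, beside 1.56%. The other 4 were the KATNA1 promoter beside LATS1, TEAD1 introns at 12827608 to 12828772 and 12842243 to 12843434, and the region 82.3 kb downstream of the TEAD4 start. The genome-wide background was 2.52 to 2.93 fragments in H2A and 2.23 to 2.68 in E92K, and its part in these orders was not tested. The farther annotated start at 149703273 had a peak in no library.

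The WWTR1 upstream region called in H2A only (149717100 to 149717686, 587 bp) lay inside the annotated gene span, 59.4 kb upstream of the canonical start and upstream of the start at 149703273. Its folds in H2A 1 to 4 were 4.16, 4.54, 5.38 and 4.57 (4.66 ± 0.510, SD, n = 4), at percentiles 28.5, 28.1, 37.9 and 32.7. Summit pileups were 17, 15, 18 and 19 fragments. The calling floor of the E92K libraries was 9 to 10 at their genome-wide background, and it is higher over a higher local background. The summits spread over 270 bp, and that of H2A 4 lay outside the bases printed above. All 556 of its 32-base words were found once in hg38. The nearest E92K peak was 34371 to 34422 bp away.

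The WWTR1 intron region called in H2A only (149530782 to 149531138, 357 bp) lay 127.1 kb downstream of the canonical start. Its folds in H2A 1 to 4 were 3.20, 3.23, 2.78 and 3.76 (3.24 ± 0.402, SD, n = 4), at percentiles 13.2, 15.2, 5.2 and 28.0, so it was among the weaker peaks of each list. The 4 summits fell within 12 bp of each other. Of its 326 words of 32 bases, 60.1% were found once and 21.2% had more than 100 copies. At each of the 4 summits the word was found once. In the E92K lists the nearest peak was 2210 to 2365 bp away. Each of the WWTR1 regions had an unadjusted p of 0.0286 and an adjusted p of 1 (Fisher's exact test, two-sided).

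**Figure D2:**
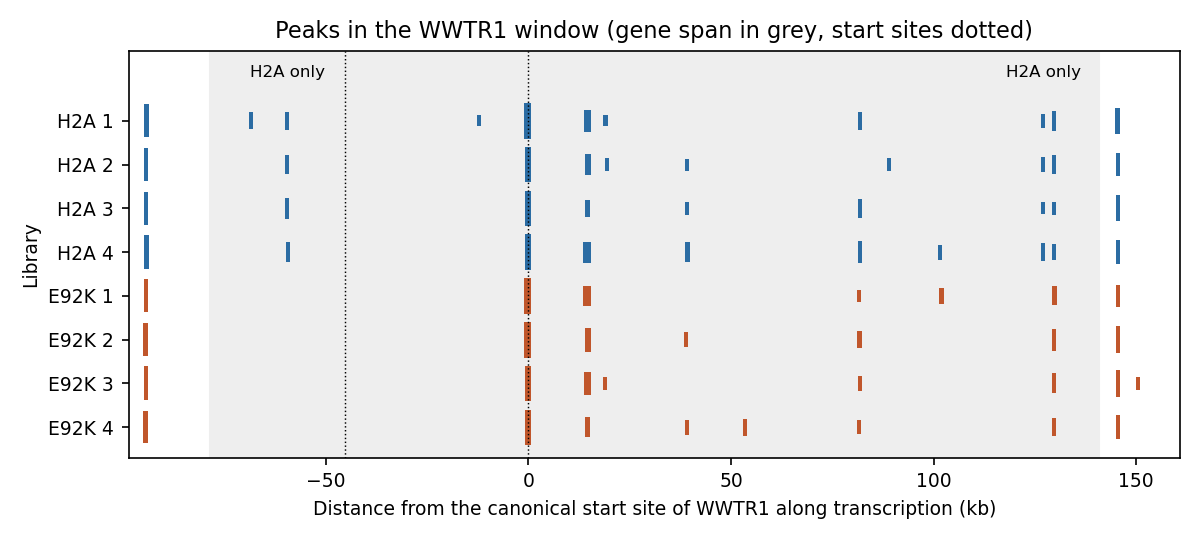
Peaks in the WWTR1 window in each of the 8 libraries, drawn against distance from the canonical WWTR1 start in kb, with positive distances downstream. Each bar is a called peak, its height scales with its within-list percentile, and narrow peaks are drawn at a minimum width. The regions 59.4 kb upstream and 127.1 kb downstream have bars in H2A 1 to 4 only, and the promoter has a bar in all 8.

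Among the 178 regions called in H2A only, the upstream WWTR1 region ranked 33 by its lowest percentile and the intron region 128. After these values were seen, the windows of all coding genes were searched: 193 of 19617 (0.984%) held an H2A-only region, 114 (0.581%) held an E92K-only region, and WWTR1 was the only gene with more than 1 H2A-only region. Its window is long, and this count held neither when every list was trimmed to the same number of peaks, nor with a -log10 q of at least 5, nor when peaks had to cover the larger share of a region; each of those left 1 region. The intron region was lost with equal lists and with the stricter q, and the upstream region with the coverage minimum.

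The number of distal peaks at WWTR1 was 9, 8, 7 and 8 in H2A 1 to 4 and 5, 5, 6 and 6 in E92K 1 to 4. Every E92K library was below every H2A library (8 ± 0.816 against 5.5 ± 0.577, SD, n = 4 each, a difference of -2.5), as was so for 0.895% of the 16760 genes with a distal peak, and the reverse order was found at 0.221%. The exact permutation test gave an unadjusted p of 0.0286 and an adjusted p of 1. Of the 16760 genes 0% passed after adjustment and 187 (1.12%) had an unadjusted p under 0.05. Both H2A-only regions are among the peaks counted. Each adds a peak to every H2A library and none to any E92K library, so they make up most of the difference. The count is therefore not a result separate from those regions. By the same exact test the difference was -1.5 with p = 0.171 on lists of equal length and -1.5 with p = 0.0857 at a -log10 q of at least 5. Without E92K replicate 1 or 2 it was -2.33 with p = 0.0571 (exact permutation test).

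TEAD1, on chromosome 11 at 12674421 to 12944737 on the plus strand, had the most distal peaks of the 10 genes. It had 16, 14, 15 and 18 in H2A 1 to 4 and 16, 17, 15 and 17 in E92K 1 to 4, and the groups overlapped. Of its 21 distal regions 12 were called in all 8 libraries. Per length of window this was 5.16 distal peaks per 100 kb, against a median of 1.81 over all coding genes (quartiles 0.593 and 3.09) and a median of 2.92 over the 10 genes.

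The strongest distal region of the 10 genes was in a TEAD1 intron 72.3 kb downstream of the start (12746152 to 12747191), whose sequence is shown above. Its folds were 10.5, 10.7, 8.99 and 11.5 in H2A 1 to 4 and 10.8, 10.1, 11.2 and 10.3 in E92K 1 to 4, at percentiles 85.9 to 92.03. In 7 of 8 libraries this was a higher percentile than that of the TEAD1 promoter itself (12673805 to 12675038), which ran from 77.5 to 90.5. A further region past the end of the gene (12963950 to 12964830), 290 kb from the start at the noncoding gene LINC00958, was called in all 8 with folds of 6.93 to 10.9. The start annotated at 12879443 had a peak in no library.

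TEAD2, on chromosome 19 at 49340595 to 49362457 on the minus strand, had the strongest promoter of the TEAD genes (49362251 to 49364106), with folds of 8.04 to 9.91 and percentiles of 89.9 to 91.5. That region is also the promoter of DKKL1, and the peaks cannot be assigned to either gene. In 7 of 8 libraries the strongest peak of the region covered no TEAD2 start, and in 5 it began 608 to 660 bp upstream of the nearest. A weaker peak covered a start in H2A 1 and E92K 3, so H2A 4, E92K 1 and E92K 4 had no peak within 500 bp of a TEAD2 start. TEAD2 had 3, 1, 3 and 2 distal peaks in H2A 1 to 4 and 1, 2, 1 and 0 in E92K 1 to 4, which overlapped (unadjusted p = 0.2, exact permutation test, adjusted p of 1). A second promoter region of TEAD2 (49361544 to 49361853) was called in E92K 2 alone, at percentile 8.5.

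TEAD3, on chromosome 6 at 35473597 to 35497079 on the minus strand, had the weakest promoter of the 10 genes (35495796 to 35497945). Its folds were 3.95, 3.71, 4.26 and 3.84 in H2A 1 to 4 and 4.87, 4.40, 4.13 and 3.81 in E92K 1 to 4, at percentiles 47.5 to 64.1. A region over an exon of TEAD3 (35473955 to 35475076) was called in H2A 1, 3 and 4 with folds of 1.99, 2.18 and 1.94, and in E92K 1 to 4 with folds of 2.45, 2.22, 2.25 and 2.67. With a -log10 q of at least 5 that region was left in E92K lists alone, at 4 of 4 against 0 of 4, as were 143 regions in all, with 138 left in H2A lists alone. The promoter of RPL10A in the same window was called in all 8.

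TEAD4, on chromosome 12 at 2959330 to 3040676 on the plus strand, had a promoter region (2958538 to 2960959) with folds of 4.62, 3.52, 5.25 and 5.16 in H2A 1 to 4 and 3.90, 5.05, 4.21 and 4.16 in E92K 1 to 4. The groups overlapped. Near its other end were distal peaks of higher fold in every library: 6.25 to 8.58 in an intronic region 74.8 kb downstream (3033854 to 3034548) and 6.13 to 8.28 in an intergenic region 82.3 kb downstream (3041284 to 3042120). Their percentiles, 58.5 to 72.5 and 61.2 to 73.2, overlapped those of the promoter, 48.9 to 72.4. Both were called in all 8 libraries. TEAD4 had 2, 4, 3 and 4 distal peaks in H2A 1 to 4 and 3, 2, 3 and 3 in E92K 1 to 4.

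CCN1, on chromosome 1 at 85580761 to 85584589 on the plus strand, is a short gene with no distal peak in any library. A region at the promoter of DDAH1, 3.8 kb upstream of the CCN1 start, was called in all 8, at percentiles 70.2 to 82.8. The CCN1 promoter region (85580607 to 85581714) had folds of 4.58, 5.07, 4.95 and 4.95 in H2A 1 to 4 and 4.79, 4.15, 4.49 and 4.27 in E92K 1 to 4 (4.89 ± 0.213 against 4.42 ± 0.282, SD, n = 4 each). E92K 1 was above H2A 1, so the groups overlapped. The peak covered 131 to 154 bp upstream of the start and 897 to 953 bp downstream in every library.

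Within that peak the summit varied in place between libraries, within the groups as well as between them. It lay 45, 178, 327 and 77 bp downstream of the CCN1 start in H2A 1 to 4 and 495, 410, 488 and 343 bp downstream in E92K 1 to 4. The groups did not overlap, and the mean differed by 277 bp, with an unadjusted p of 0.0286 and an adjusted p of 0.846 (exact permutation test over 36895 regions with a peak in all 8 libraries). This was noticed after the values were seen. Over those 36895 regions, 3.38% had summits that did not overlap between the groups, and 0% passed after adjustment. Of the 37 regions of this kind at the 10 genes 3 did so: besides CCN1, the LATS1 promoter with a mean difference of 34.8 bp and the COMMD2 promoter beside WWTR1 with 14 bp. Where a peak holds several summits, the position is that of the highest, so a small change in height between summits moves it; that was not tested.

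CCN2, on chromosome 6 at 131948176 to 131951372 on the minus strand, had a promoter region (131950022 to 131951536) with folds of 7.0, 7.76, 8.58 and 8.66 in H2A 1 to 4 and 7.96, 7.67, 7.87 and 7.94 in E92K 1 to 4. The E92K folds lay inside the H2A range. The summits were 568 to 659 bp downstream of the start. A region 15.3 kb upstream (131966413 to 131966915), at the noncoding gene LINC01013, was called in 7 libraries and not in H2A 3. Its folds were 3.15, 5.66 and 3.53 in H2A 1, 2 and 4 and 5.37, 4.87, 4.92 and 6.0 in E92K 1 to 4.

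The RefSeq promoter table (GRCh38.p14) matched 7 of the 10 genes. CCN1, TEAD1 and TEAD4 were not matched, so they are not part of this search. In the matched promoters the TEAD core was found upstream of CCN2 and YAP1. Those promoters are shown as the 250 bases before the start, in the direction of transcription, with each core in capitals.
CCN2 promoter, chr6:131951373-131951622, minus strand: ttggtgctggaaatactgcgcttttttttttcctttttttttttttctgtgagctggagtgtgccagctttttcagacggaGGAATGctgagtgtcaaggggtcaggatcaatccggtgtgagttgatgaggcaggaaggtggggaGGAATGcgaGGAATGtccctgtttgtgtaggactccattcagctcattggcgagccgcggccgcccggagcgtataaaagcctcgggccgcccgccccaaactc
YAP1 promoter, chr11:102110197-102110446, plus strand: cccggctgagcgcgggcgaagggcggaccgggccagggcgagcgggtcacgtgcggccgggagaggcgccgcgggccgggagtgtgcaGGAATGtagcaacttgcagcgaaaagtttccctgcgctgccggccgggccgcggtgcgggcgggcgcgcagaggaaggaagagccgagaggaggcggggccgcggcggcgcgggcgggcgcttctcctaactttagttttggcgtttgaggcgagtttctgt
CCN2 held 3 cores, at 169, 104 and 95 bases before its start, and YAP1 held 1, at 162. Over 35116 promoters of this length in the table, 11.9% held the core on either strand and 29 (0.0826%) held 3 or more. The CCN2 peak reached 89 to 164 bp upstream of the start. It covered the cores at 104 and 95 in 7 of 8 libraries and none in E92K 4, and the core at 169 lay outside it in all 8. The YAP1 peak reached 504 to 550 bp upstream and covered its core in all 8. A match of letters does not show that a TEAD protein was bound.

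**Figure D3:**
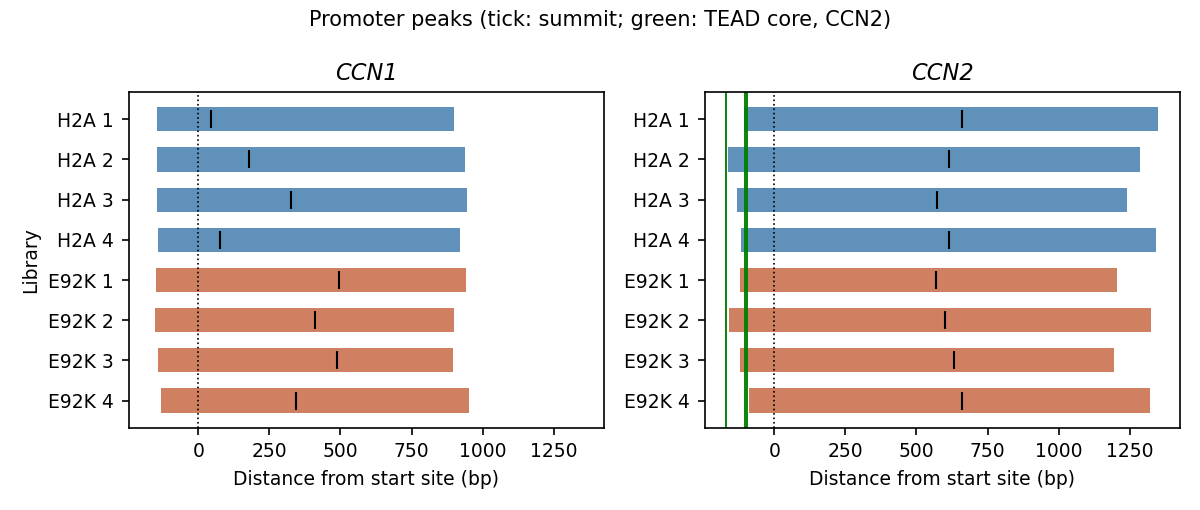
Extent of the promoter peak (bars) and its summit (marks) at CCN1 and CCN2 in each of the 8 libraries, against distance from the transcription start in bp, with the TEAD cores upstream of CCN2 as green lines. The bases upstream of CCN1 were not searched for the core, so the lack of lines there shows nothing. CCN1 summits lie at 45 to 327 bp in H2A and 343 to 495 bp in E92K, while CCN2 summits lie at 568 to 659 bp in both groups. Over all regions with a peak in all 8 libraries, 3.38% had summits that did not overlap between the groups, and 0% passed after adjustment.

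By median percentile the order of the 10 promoters ran LATS1 (98.9), WWTR1 (93.5), TEAD2 (91.0), CCN2 (88.9), YAP1 (84.8), CCN1 (84.2), TEAD1 (83.8), LATS2 (83.2), TEAD4 (62.2) and TEAD3 (58.2). LATS1 stood above WWTR1, WWTR1 above TEAD2, CCN2 above YAP1 and LATS2 above TEAD4 in all 8 libraries. TEAD2 was above CCN2 in 6. YAP1, CCN1 and TEAD1 exchanged places: YAP1 was above CCN1 in 5 libraries, CCN1 above TEAD1 in 4, and TEAD1 above LATS2 in 4. TEAD4 was above TEAD3 in 6. The median percentile of all promoter peaks was 84.1 to 85.9 by library. By their medians 4 of the 10 genes were above that range, TEAD3 and TEAD4 were well below it, and the rest were near it. TEAD2 was among the 4, but its region is also the promoter of DKKL1. The strongest peak there covered no TEAD2 start in 7 of 8 libraries.

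**Figure D4:**
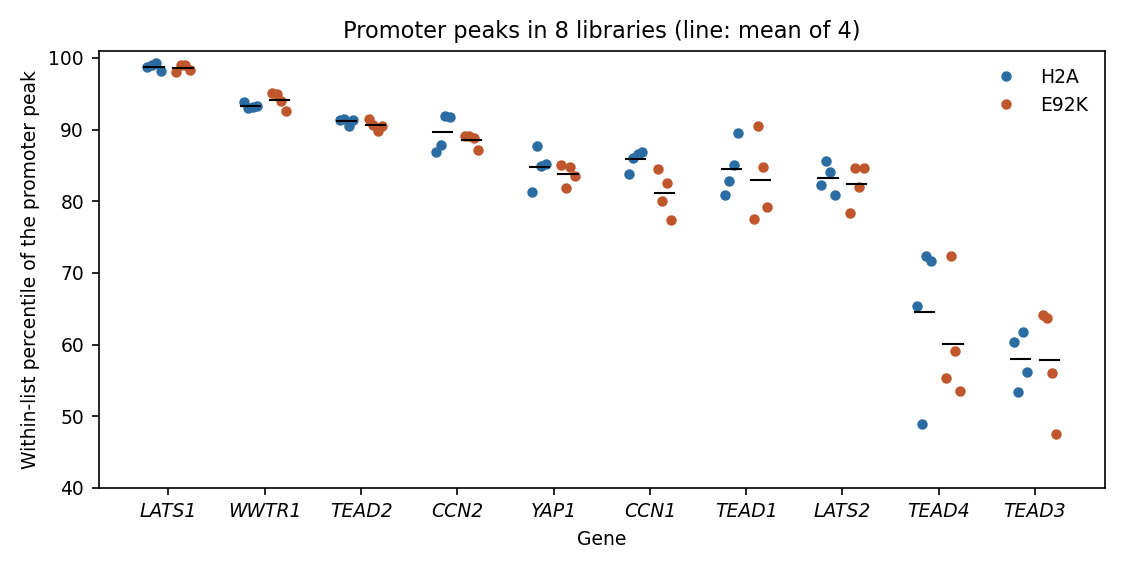
Within-list percentile of the promoter peak of each of the 10 genes, with 1 point for each library and the groups in separate colours. LATS1 points lie at 98.0 to 99.2, and TEAD3 points at 47.5 to 64.1.

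Away from promoters, 23 of the 79 distal regions of the 10 genes were called in all 8 libraries (29.1%), beside 29.3% of all distal regions. Another 26 were called in a single library (32.9%, beside 30.6%). By place, 65 lay in introns, 12 in intergenic DNA and 2 in exons, and their median width was 614 bp. Of the 9 genes that had distal peaks, LATS2 is only described, because its counts include the region that chose the genes. At the others the number of distal peaks did not pass the test (adjusted p of 1). The values in the H2A and E92K libraries overlapped at all of the 9 but WWTR1. CCN2 had 2, 1, 0 and 1 distal peaks in H2A 1 to 4 and 1, 2, 2 and 1 in E92K 1 to 4. TEAD3 had 3, 1, 2 and 2 against 1, 2, 2 and 2. LATS1 had 3, 4, 4 and 1 against 5, 3, 3 and 3, and LATS2 had 4, 3, 3 and 4 against 4, 4, 4 and 5.

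**Figure D5:**
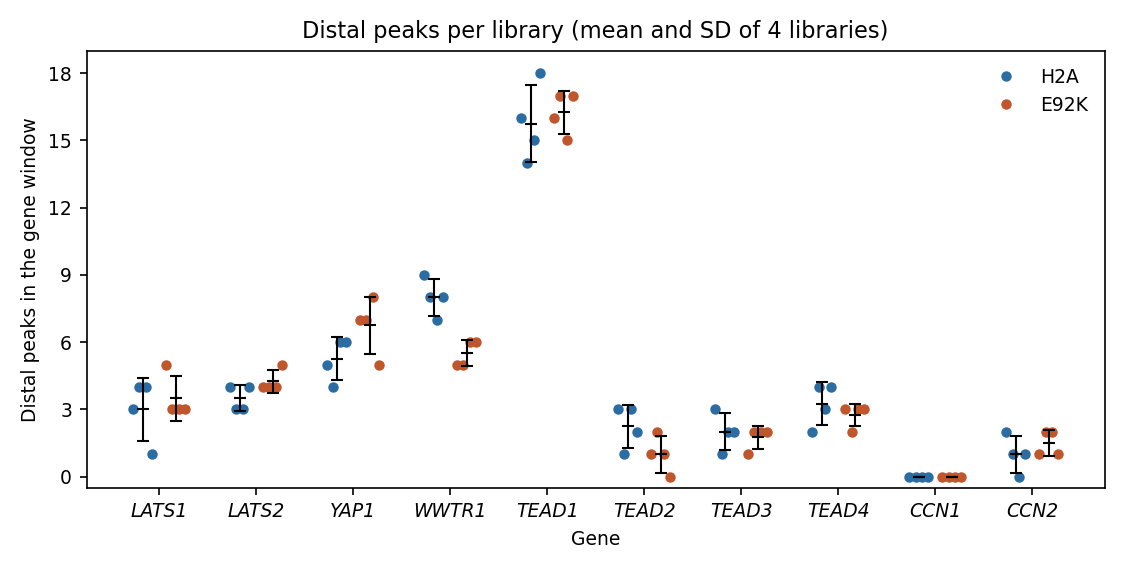
Number of distal peaks in the span plus 20 kb of each of the 10 genes, with 1 point for each library and the groups in separate colours. At WWTR1 the H2A libraries hold 7 to 9 and the E92K libraries 5 to 6, and at the other genes the groups overlap or, at CCN1, are all at 0.

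In base composition, the promoter regions of the 10 genes had a median GC content of 66.5%, against 61.7% for all promoter regions, and the distal regions had 45.0% against 45.3%. Within the central 300 bp, the TEAD core stood in 3 of 11 promoter regions (27.3%, against 10.4% of all) and in 14 of 79 distal regions (17.7%, against 16.9%). The 3 promoter regions were those of TEAD1, TEAD3 and WWTR1. The cores shown before the CCN2 and YAP1 starts lay outside the central 300 bp of their regions. Distal regions with the core were at TEAD1 (5), TEAD4 (3), TEAD2 (2), TEAD3 (2) and WWTR1 (2). The AP-1 core, the site of FOS and JUN factors that often sit beside TEAD at enhancers, stood in 14 of 79 distal regions (17.7%, against 11.1%). The GATA core was in 13 (16.5%, against 18.3%), and the ETS core CCGGAAGT was in none of the 11 promoter regions (4.48% of all) or 79 distal regions (0.274% of all). These counts are descriptions of letters, and overlaps between motifs were allowed.

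In the wider pathway, none of the tests gave a called gene, and none did over all coding genes. With 4 against 4 libraries, Fisher's exact test and the exact permutation test give p = 0.0286 at best. That was too large to pass adjustment here, so the lack of calls cannot show that the groups were alike. The promoters of all 23 upstream kinases and scaffolds, among them STK3, STK4, SAV1, MOB1A, NF2 and TAOK1, had a peak in all 8 libraries. Over all coding promoters 68% did. Of 9 junction and polarity regulators 8 did, and DCHS1, an atypical cadherin, had a peak in 1 H2A library. Of 4 VGLL genes, which encode TEAD cofactors, 3 did, and VGLL1 had none. Of 18 further YAP targets 17 did, and ANKRD1 had a peak in 2 H2A libraries and 1 E92K library. Their windows held 0 regions called in every library of a group and no library of the other group. Over all coding genes, 0.984% of windows held an H2A-only region and 0.581% an E92K-only region. In these lists 0 genes had distal peak numbers with an unadjusted p under 0.05 (exact permutation test), beside 1.12% of all genes with a distal peak. With so few genes, counts of 0 are near those shares.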

How the data were processed

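ATAC-seq was deposited as 8 peak lists, 1 per library, on hg38 per the labels. Which aligner and peak caller were run, how reads from repeats were placed and whether Tn5 cuts were shifted is not given in the sources used here. For each peak the authors deposited a fold over background (a ratio), a -log10 p-value, a -log10 q-value, a score of 10 times the -log10 q, and a summit. No list held a -log10 q under 2. Rows that shared an interval were joined as 1 peak, and the highest summit was kept. Fragment pileup and background were recovered from the deposited fold and -log10 p under a Poisson model, for at least 99.8% of summits in every library.

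Peaks were merged over libraries from 1 bp of overlap. A region was a promoter within 1000 bp of a coding start in GENCODE 44 and otherwise distal. Presence was tested with Fisher's exact test and distal peak number and summit position with exact permutation of the 70 group assignments, all two-sided with Benjamini-Hochberg adjustment over all features, at 0.05. Scripts used Python 3.11.15, numpy 2.4.6, pandas 2.3.3, scipy 1.17.1 and matplotlib 3.10.9, and were tested on simulated data.

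Named were the 10 members, their promoter regions, distal regions called in 4 libraries of a group and at most 1 of the other, the strongest distal region of each gene in all 8, and the pathway lists; WWTR1 counts, TEAD3, LATS2, TEAD1, TEAD4 and CCN2 regions beyond that rule were chosen after their values were seen. The members and lists were chosen with earlier results of these data known. Alternatives were a stricter q, equal list lengths, a coverage minimum, other windows and promoter widths, each library left out, and a replicate block. The sequences under the LATS2 upstream region and the WWTR1 intron region are not reported here.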

Additional observations from a re-analysis of the deposited data

Results flagged for a closer look

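In 57 groups of 4 values at the 10 genes, 6 held a library whose gap to the nearest other exceeded Dixon's critical value. Chance gives about 1 in 20 such groups for continuous values such as folds. The fold at the YAP1 promoter was 4.965 in E92K 2, against 5.816, 5.71 and 5.719 in the other E92K libraries. The fold at the LATS2 intronic region 46.7 kb downstream was 3.609 in E92K 1, against 4.475, 4.585 and 4.61. The other 4 were numbers of distal peaks in E92K, where 3 libraries held the same number, so that any other number in the remaining library meets the criterion and the rate of 1 in 20 does not apply: LATS1 with 5 in E92K 1 and 3 in the rest, LATS2 with 5 in E92K 4 and 4 in the rest, TEAD3 with 1 in E92K 1 and 2 in the rest, and TEAD4 with 2 in E92K 2 and 3 in the rest.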

How the results depend on the processing

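The LATS2 upstream region kept its split of every E92K library against no H2A library with the stricter q, equal lists and the coverage minimum; leaving out a library cannot change it, and since the split chose the genes this is no independent support. All 10 promoters had a peak in all libraries under each except the 500 bp promoter, which left 9, without TEAD2. In the windows of the 10 genes, the number of H2A-only regions went from 2 to 1 with a -log10 q of at least 5, with lists of equal length and with the coverage minimum. The number of E92K-only regions went from 1 to 2 with a -log10 q of at least 5, where the TEAD3 exon region joined, and ran from 1 to 2 with a library left out, where the YAP1 intron region joined without E92K replicate 4. Over all coding promoters, E92K-only promoters were 1, and 2 with the stricter q, 2 with equal lists, 3 with the coverage minimum and 3 with a narrower promoter; H2A-only promoters were 5, and 2 with the narrower promoter. With a library left out these ran from 1 to 8 and from 7 to 12, and H2A-only and E92K-only regions from 270 to 369 (178 with all libraries) and from 217 to 321 (135), as fewer libraries have to meet the rule. H2A-only regions did not outnumber E92K-only regions throughout: the numbers were 138 against 143 with the stricter q, 148 against 154 with equal lists, 312 against 321 without E92K replicate 1 and 270 against 285 without E92K replicate 4. The cause of the other changes was not tested.

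With the replicate block, an exact test that flips signs within 4 pairs and cannot go below 0.125, peaks per library gave p = 0.625 and the distal peak number at WWTR1 gave -2.5 with p = 0.125. Libraries with the same replicate number were no more alike in distal peak number than others. Deviations in distal peak number correlated at -0.07 to 0.02 for the same replicate number and -0.06 to 0.08 for different ones over 16760 genes. Whether same-numbered libraries were made together cannot be told from this. No gene was called for distal peak number with the block or under any other alternative. With the block no p under 0.05 was possible. Elsewhere the smallest p of the exact permutation test was 0.0286, and too few genes reached it for any to pass adjustment. The lack of calls therefore cannot show that the groups were alike. The difference in peaks per library ran from -2500.75 to -393 with a library left out. A region under about 10 fragments at its summit could not be called, so absence from a list is not absence of open chromatin, and the 32-base words say nothing of longer or paired reads.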
